A study of Homo sapiens with 6 samples.

Results

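K562, an established human chronic myeloid leukaemia line, was measured on 1-colour Affymetrix arrays after calactin and without it. The 3 calactin arrays came from cells given the compound at a labelled dose of 0.15 mM and harvested at 12 h, and the 3 untreated arrays came from cells of the same time point with no agent. Calactin is a cardenolide, a plant steroid of the cardiac glycoside class, which binds the sodium pump. All 6 samples share the line, the culture medium and Trizol-extracted total RNA, and the labels call the replicates biological. The genes described are 41 genes of the NRF2, glutathione, thioredoxin and metallothionein systems, picked by name from their function. A gene was measured where a probe set, the group of short probes that the array reads as 1 value, carried its symbol alone in the platform annotation, and the brightest such probe set stood for it. This gave 39 genes of 19775 on the array. No probe set carried the symbol MAFK or PRDX5, and those 2 genes were not analysed here.

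NRF2, the product of NFE2L2, is a transcription factor that KEAP1 keeps low by feeding it to a ubiquitin ligase. Oxidants and electrophiles modify KEAP1, and NRF2 then pairs with a small MAF protein on antioxidant response elements, a place that the repressor BACH1 occupies when haem is scarce. Its targets make and recycle glutathione, reduce thioredoxin and peroxiredoxins and clear quinones and haem, while metallothioneins bind zinc and copper and answer mainly to the zinc sensor MTF1.

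Signals are the deposited linear intensities. They were compared with limma on log2(intensity + 16), two-sided, with p-values adjusted by the Benjamini-Hochberg method over all 19775 genes, and a gene is called higher or lower at an adjusted p under 0.05. Each log2 fold change below is calactin minus untreated on that scale, with its standard error, and understates the change of dim genes. Over all genes the median log2 fold change was -0.059, and 21.4% were called, 4.93% higher and 16.5% lower. Array medians were 31.17 to 32.06 with calactin and 33.12 to 34.41 without. Arrays correlated at 0.989 to 0.992 within a group and at 0.974 to 0.979 between groups. All 7 measured genes of an erythroid and megakaryocytic marker list for K562 lay above the array median on every array, with summed signals of 30480 to 38990 with calactin and 29560 to 36270 without. Of these 7, TAL1 was called higher, at 3822.6 to 4452.7 with calactin and 1917.6 to 2443.6 without, and GATA1 lower, at 711.8 to 1027.8 and 1206.8 to 1820.5. Defining markers of other cell types were partly near the floor, such as CD14, of monocytes, at 5.8 to 18.7 with calactin and 3.4 to 8.5 without. Others lay above the median of all 6 arrays, such as LYZ and CSF1R of monocytes and EPCAM and KRT8 of epithelial cells. LYZ was at 590 to 760 with calactin and 792.9 to 820.9 without, and EPCAM at 2410.9 to 2659.5 and 2800 to 3133.1. CD3D, of T cells, was not near the floor either. Its signal was 1667.1, 1633.6 and 1808.6 with calactin and 2157.1, 2550.1 and 2282.7 without, and it was called lower. Summed signals of the 4 T cell markers were 1748 to 1927 with calactin and 2240 to 2646 without, those of the 3 measured monocyte markers 677.8 to 823.9 and 854.3 to 908.1, and those of the 4 epithelial markers 4585 to 5221 and 5511 to 6524. The 4 fibroblast markers summed to 904.2 to 1135 with calactin and 984.8 to 1218 without, and 1 of them, COL1A2, was called lower. A control probe set for the middle of 28S ribosomal RNA differed 13.8-fold, with a mean of 10109.1 with calactin and 732.1 without. The part of any other cell type, or of that ribosomal signal, in the results was not tested, and in bulk RNA fewer cells of a type and less RNA per cell cannot be told apart.

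Of the 39 genes, 4 were called higher with calactin (NFE2L1, MAFG, NQO1 and MT1G) and 7 lower (SRXN1, MAFF, BACH1, GLRX2, GLRX, GSR and GSS), which is 28.2% called. Brighter genes were called more often. With the 9887 genes above the median signal fitted alone, 1136 were called higher and 3365 lower. Of the 38 members among them, 6 were called higher and 9 lower, so the members did not stand out by their share of calls. With the replicate number as a block, GCLM and MT1X were also called higher and CAT lower. The median log2 fold change of the 39 was -0.036, with 15 genes above 0 and 24 below. Only SRXN1 and MAFF, among the 39, fell by at least 2-fold, and none was called higher by that much, while of all 19775 genes 870 were called lower and 105 higher by at least 2-fold. Of the 39 genes, 5 had every calactin array above every untreated array and 11 had every one below. Of all genes 34.7% were apart in this way, 10.3% above and 24.4% below. Over the 87 probe sets that carry one of these symbols, 8 were called higher and 10 lower, where 3.68% of all 54613 probe sets were called higher and 10.3% lower. Partners and regulators of the NRF2 dimer thus moved in both directions, and 4 glutathione genes were called lower as deposited but not under every scaling. Of the thioredoxin and peroxiredoxin genes SRXN1 alone was called at the brightest probe sets as deposited.

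**Figure D1:**
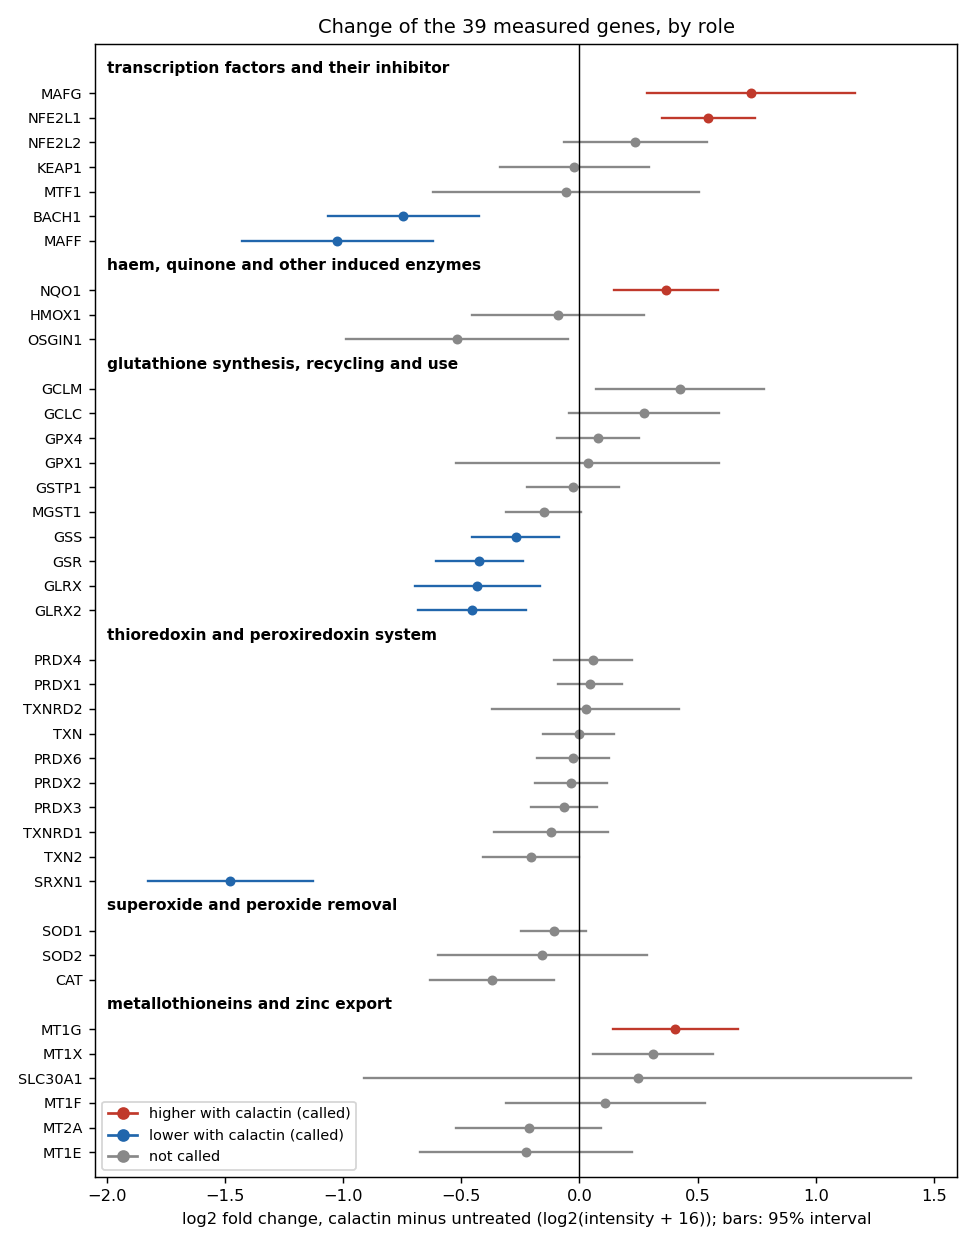
Log2 fold change (calactin minus untreated, on log2(intensity + 16)) of the 39 measured genes by role, with 95% intervals from the limma fit over 3 calactin and 3 untreated arrays. SRXN1 at -1.48 and MAFF at -1.03 lie farthest below 0, MAFG at 0.72 farthest above, and most thioredoxin and peroxiredoxin genes sit close to 0.

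Promoters were read from RefSeq on GRCh38.p14, from 250 bases before to 50 bases after the start. Of the 39 genes, 29 had at least 1 window that was searched, with 47 windows in all. No window was searched for the remaining members, among them the called genes GSR, GSS and MT1G. Their promoters are thus left out of the member counts below. The core of the antioxidant response element, TGACNNNGC on either strand, was found in 10 of the 47 windows (21.3%), against 13.3% of 35116 windows of all genes. The metal response element core, TGCACNC or TGCGCNC on either strand, was found in 24 windows (51.1%), against 29.6%. Windows of the same gene can overlap and were counted separately. By gene, 21 of the 29 had this core, of which 1 was called higher, 2 lower and 18 not called. The AP-1 motif TGANTCA, which can lie inside the first motif, was found in 4 windows (8.51%), against 7.71%. The 9 genes with an antioxidant response element core were GCLM, GSTP1, KEAP1, MAFF, MGST1, MT1X, MT2A, SLC30A1 and TXNRD1. None of the 9 was called higher, 1 (MAFF) was called lower and 8 were not called. Of the 29 genes with a searched window, 3 were called higher, 5 lower and 21 not called. Counts this small cannot set the 9, or the 21 with a metal response element core, apart from the 29. Bases farther than 250 before the start were not searched.

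The 5 promoters below belong to the pair of largest falls, SRXN1 and MAFF, and to GCLM, MT2A and MT1X, whose windows hold these motifs and whose transcripts were not called. Capitals mark every match to the motifs named above. The windows are chr20:653151-653450, minus strand for SRXN1, chr22:38201744-38202043, plus strand for MAFF, chr1:93909381-93909680, minus strand for GCLM, chr16:56608334-56608633, plus strand for MT2A and chr16:56682220-56682519, plus strand for MT1X, each written 5′ to 3′ along the gene.
SRXN1: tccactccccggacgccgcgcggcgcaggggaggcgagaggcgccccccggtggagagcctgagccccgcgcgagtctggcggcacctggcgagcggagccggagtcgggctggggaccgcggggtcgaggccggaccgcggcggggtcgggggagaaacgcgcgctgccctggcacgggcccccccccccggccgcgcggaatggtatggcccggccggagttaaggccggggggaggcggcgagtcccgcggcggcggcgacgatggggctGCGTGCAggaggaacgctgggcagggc
MAFF: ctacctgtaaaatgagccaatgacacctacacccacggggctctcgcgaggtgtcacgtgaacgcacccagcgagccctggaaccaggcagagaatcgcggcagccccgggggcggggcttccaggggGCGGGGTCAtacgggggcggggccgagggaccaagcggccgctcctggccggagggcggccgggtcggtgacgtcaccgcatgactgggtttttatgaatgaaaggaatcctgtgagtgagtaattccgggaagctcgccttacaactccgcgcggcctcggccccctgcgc
GCLM: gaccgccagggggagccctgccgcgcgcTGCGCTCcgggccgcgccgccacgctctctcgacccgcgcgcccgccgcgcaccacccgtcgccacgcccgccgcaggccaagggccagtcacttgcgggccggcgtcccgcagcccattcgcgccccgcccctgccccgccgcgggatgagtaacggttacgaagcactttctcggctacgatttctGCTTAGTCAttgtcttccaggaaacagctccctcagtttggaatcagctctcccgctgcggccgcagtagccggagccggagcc
MT2A: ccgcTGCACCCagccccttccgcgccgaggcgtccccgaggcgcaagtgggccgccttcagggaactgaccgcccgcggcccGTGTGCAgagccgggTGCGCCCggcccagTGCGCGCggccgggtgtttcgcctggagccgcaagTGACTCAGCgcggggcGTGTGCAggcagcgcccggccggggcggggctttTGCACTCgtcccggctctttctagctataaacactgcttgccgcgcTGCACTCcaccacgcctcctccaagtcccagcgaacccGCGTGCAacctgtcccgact
MT1X: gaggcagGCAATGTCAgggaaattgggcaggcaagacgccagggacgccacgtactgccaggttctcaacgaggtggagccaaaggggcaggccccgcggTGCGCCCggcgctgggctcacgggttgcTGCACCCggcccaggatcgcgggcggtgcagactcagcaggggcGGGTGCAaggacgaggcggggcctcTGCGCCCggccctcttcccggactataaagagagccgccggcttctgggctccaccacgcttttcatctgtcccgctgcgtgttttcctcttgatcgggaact
The SRXN1 window has 1 match, to the metal response element core, and it starts 24 bases after the start site. In MAFF the only match is to the antioxidant response element core, 122 bases before the start of the first of its windows. GCLM has the same core 34 bases before its start. MT2A has 10 matches, among them the run TGACTCAGC, which matches the antioxidant response element core and the AP-1 motif at once, and MT1X has 5. A match is a run of letters, and it does not show that a factor was bound there.

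Among the transcription factors and their inhibitor, 7 were measured, 2 were called higher and 2 lower, where 4.93% of all genes were called higher and 16.5% lower. NFE2L1, a relative of NRF2 that sits in the endoplasmic reticulum membrane and drives proteasome genes, had a signal of 1797.1, 1913.0 and 2074.7 with calactin and 1225.0, 1402.5 and 1320.8 without. All 3 calactin arrays lay above all 3 untreated arrays. It rose by 0.54 ± 0.09 (SE) on the log2 scale, 1.46-fold, with an adjusted p of 0.0022. Its other probe sets were called higher too, at 0.66 and 0.83. NFE2L1 kept its call in 18 of 19 alternative settings and lost it with replicates 1 and 2 alone (adjusted p = 0.0568).

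NFE2L2 itself gave 3128.2, 2838.6 and 2839.3 with calactin and 2245.2, 3138.2 and 2179.7 without. Untreated array 2 lay above all others, so the groups overlapped, and the log2 fold change of 0.24 ± 0.13 was not called (adjusted p = 0.284, 95% interval -0.07 to 0.54). Without untreated array 2 the value was 0.40 (adjusted p = 0.0091). Leaving out the highest untreated array could only raise the difference, so this gives no support for a rise. NFE2L2 was called in 2 of 19 alternatives, the other being poly-A spike scaling with the replicate block. KEAP1 transcript, which encodes the inhibitor, differed by -0.022 ± 0.14 (95% interval -0.34 to 0.29), and its arrays overlapped.

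The repressor BACH1 had a signal of 931.7, 1149.5 and 1033.8 with calactin and 1507.0, 2161.8 and 1628.3 without. Every calactin array lay below every untreated one. It fell by 0.74 ± 0.14 on the log2 scale, to a 1.68-fold lower level, with an adjusted p of 0.0052. This rests on the brightest probe set: the other probe sets that carry its symbol alone were at 0.14 ± 0.16 and 0.98 ± 0.32, dim and not called, and averaging a gene's probe sets turned its value to 0.12 (adjusted p = 0.654). A probe set shared with the antisense gene GRIK1-AS2 was at -0.059 ± 0.10.

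The small MAF proteins, which lack an activation domain and lend CNC factors their DNA contact, split. MAFF gave 303.2, 242.1 and 383.9 with calactin and 543.8, 634.5 and 747.9 without, and its groups were apart. It fell by 1.03 ± 0.18 on the log2 scale, 2.04-fold, with an adjusted p of 0.0033, its second probe set fell by 1.11, and the call held in all 19 alternatives. MAFG gave 1635.5, 1314.1 and 1151.3 with calactin and 784.1, 1076.9 and 633.1 without. The lowest calactin array lay just above the highest untreated one, untreated array 2. MAFG rose by 0.72 ± 0.19, 1.65-fold (adjusted p = 0.0273), with 0.77 at its second probe set. Leaving out calactin array 1 or 2, or untreated array 1 or 3, lost the call (adjusted p = 0.0813 to 0.105).

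MTF1, the zinc-sensing activator of metallothionein genes, gave 171.5, 172.8 and 173.1 with calactin and 124.8, 283.6 and 162.6 without, at -0.057 ± 0.25. Its untreated arrays enclosed the calactin ones. Other MTF1 probe sets were at 0.29 and 0.51 and were not called, the higher of them with adjusted p = 0.0662 over all probe sets.

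**Figure D2:**
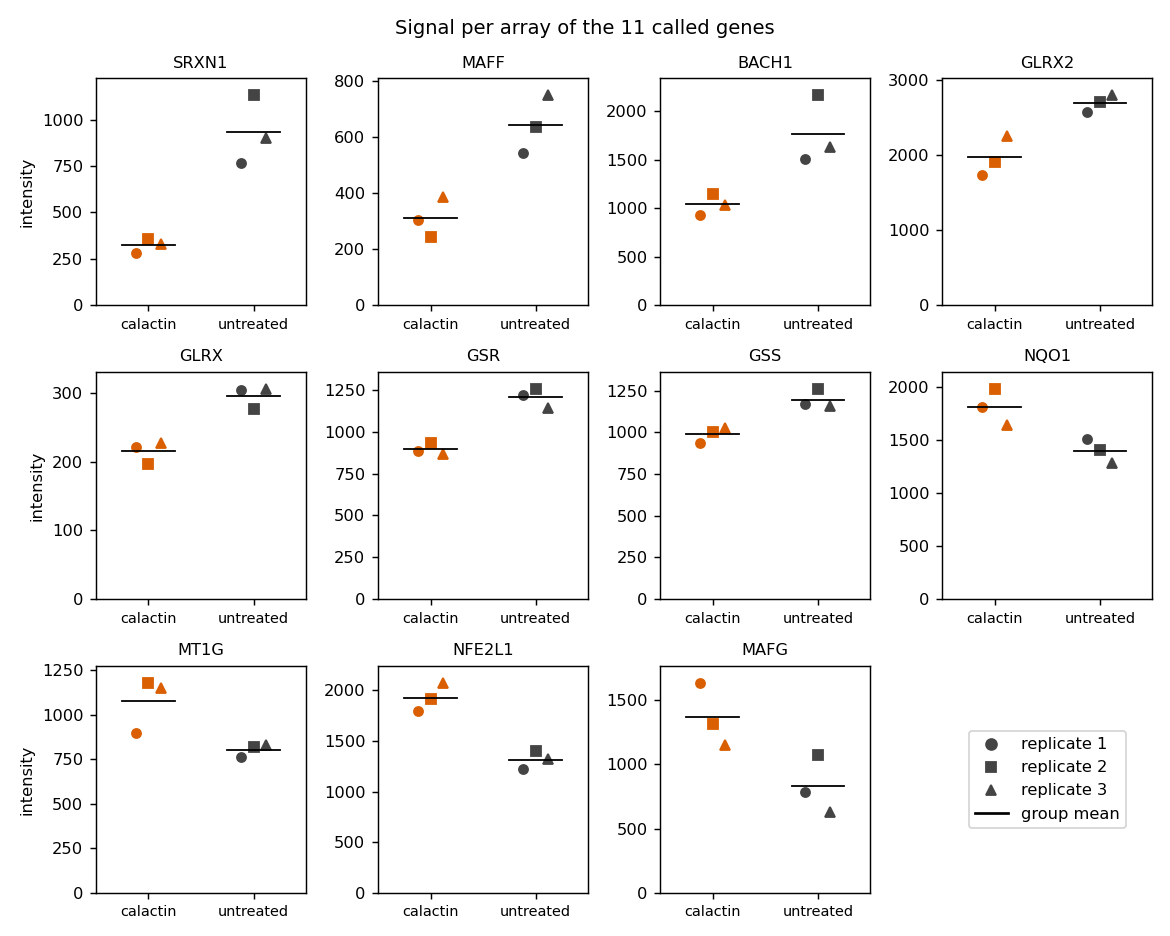
Signal (linear intensity) on each of the 6 arrays for the 11 called genes, calactin left and untreated right, with 1 marker per replicate number and a bar at the group mean. In all 11 panels the calactin points lie wholly on 1 side of the untreated points, widest for SRXN1, at 280.6 to 354.9 with calactin and 767.8 to 1132.2 without.

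Of the 3 inducible enzymes outside the glutathione and thioredoxin systems, NQO1 was called higher and the others were not called. NQO1, the quinone reductase most used as a readout of NRF2, gave 1805.1, 1977.3 and 1637.0 with calactin and 1504.0, 1402.1 and 1284.2 without, and the groups were apart. It rose by 0.37 ± 0.10 on the log2 scale, 1.29-fold, with an adjusted p of 0.0253, and its other probe sets were called higher at 0.48 and 0.60. The call was lost without calactin array 1 or 2 or untreated array 2 or 3 (adjusted p = 0.0548 to 0.103).

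HMOX1, haem oxygenase 1, another NRF2 target that BACH1 represses, gave 59.5, 75.6 and 74.3 with calactin and 81.5, 77.5 and 66.7 without. The groups overlapped, and the difference of -0.090 ± 0.16 had a 95% interval of -0.45 to 0.27. OSGIN1, a growth inhibitor induced by oxidative stress, gave 63.6, 62.5 and 77.9 with calactin and 94.9, 143.0 and 81.4 without. Its groups were apart, yet the difference of -0.52 ± 0.21 was not called (adjusted p = 0.123).

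Of 10 measured glutathione genes, 0 were called higher and 4 lower as deposited, with a median of -0.089. The shares over all genes were 4.93% higher and 16.5% lower. GCLC and GCLM, the catalytic and modifier subunits of the rate-limiting enzyme of glutathione synthesis, were not among the falls. GCLM gave 2729.0, 3205.5 and 2572.6 with calactin and 1857.5, 2728.3 and 1826.5 without. Only untreated array 2 reached into the calactin range. The value of 0.42 ± 0.16 was not called (adjusted p = 0.0942), but with the replicate number as a block it was (adjusted p = 0.0046), as it was without untreated array 2 (0.61, adjusted p = 0.0055). GCLC was at 0.27 ± 0.14 (adjusted p = 0.232), and a dimmer GCLC probe set was at -0.025 ± 0.14, with 226.0, 227.2 and 214.4 with calactin and 186.2, 269.0 and 231.7 without.

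GSS, which adds glycine in the last step of glutathione synthesis, gave 938.1, 1003.7 and 1027.9 with calactin and 1173.1, 1261.0 and 1156.6 without. It was called lower at -0.27 ± 0.08, 1.21-fold (adjusted p = 0.0453), a call that was lost when any 1 of the 6 arrays was left out (adjusted p = 0.0771 to 0.144). GSR, the reductase that returns oxidised glutathione to its reduced form, gave 882.7, 933.2 and 865.1 with calactin and 1216.5, 1255.0 and 1143.5 without. The groups were well apart, and GSR fell by 0.42 ± 0.08 on the log2 scale, 1.34-fold, with an adjusted p of 0.0054. It stayed called with any 1 array left out. A second, dimmer GSR probe set gave 667.0, 847.1 and 653.7 with calactin and 1026.6, 942.1 and 831.4 without. There the groups overlapped, and the value of -0.367 ± 0.125 was not called (adjusted p = 0.0994 over all probe sets).

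The glutaredoxins, which use glutathione to reduce mixed disulfides, both fell as deposited. Neither was called with arrays scaled to the hybridisation spikes, control RNAs added just before hybridisation (adjusted p = 0.548 for GLRX and 0.406 for GLRX2), or with poly-A spike scaling plus the replicate block, and GLRX was not called under quantile normalization (-0.24, adjusted p = 0.230) or median centring (adjusted p = 0.0577). GLRX, the cytosolic form, gave 221.8, 196.3 and 226.5 with calactin and 303.5, 276.4 and 305.5 without, at -0.43 ± 0.12, 1.35-fold (adjusted p = 0.0282). Its second probe set gave 73.2, 68.3 and 86.3 with calactin and 150.6, 183.2 and 185.2 without, at -1.04 ± 0.15. So the direction was shared while the size differed between probe sets, and the call of the brighter one was lost without untreated array 1 or 3 or any 1 calactin array (adjusted p = 0.0597 to 0.100). GLRX2, mainly mitochondrial, gave 1732.6, 1909.3 and 2254.5 with calactin and 2564.1, 2706.4 and 2793.4 without. It fell by 0.46 ± 0.10, 1.37-fold (adjusted p = 0.0113), and lost its call without calactin array 2 (adjusted p = 0.0503) or untreated array 3 (adjusted p = 0.0548).

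The remaining glutathione genes were not called. GPX4, the peroxidase that clears lipid hydroperoxides, differed by 0.077 ± 0.08 (95% interval -0.10 to 0.25). GSTP1, an abundant glutathione transferase, differed by -0.026 ± 0.09 (95% interval -0.22 to 0.17). MGST1, a membrane-bound transferase, gave 1394.4, 1320.2 and 1387.0 with calactin and 1510.6, 1512.6 and 1536.8 without. Those groups were apart at -0.15 ± 0.07, but the difference was not called (adjusted p = 0.186). The single GPX1 probe set lay between 1.0 and 11.5 with calactin and between 1.0 and 11.9 without, below every array's median, so it gave no usable level.

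In the thioredoxin and peroxiredoxin system, 10 genes were measured, 0 were called higher and 1, SRXN1, was called lower. SRXN1 encodes sulfiredoxin, which uses ATP to repair overoxidised peroxiredoxins. Its signal was 280.6, 354.9 and 330.7 with calactin and 767.8, 1132.2 and 901.7 without, averaging 322.07 ± 37.90 with calactin and 933.89 ± 184.32 without (SD, n = 3 each). The highest calactin array was below the lowest untreated one by a wide margin. It was the largest change among the 39 genes as deposited, at -1.48 ± 0.15 on the log2 scale, 2.79-fold lower, with an adjusted p of 0.00029 from limma. The replicate pairs gave -1.40, -1.63 and -1.40, and the call held in all 19 alternatives, at -0.95 to -1.61. Only 1 probe set carried its symbol, so no second probe set could check this fall. The alternatives that average or re-choose probe sets left its value as it was.

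None of the peroxiredoxins that sulfiredoxin repairs was called. PRDX1 gave 12362.6, 11773.2 and 11878.0 with calactin and 11383.7, 11081.0 and 12511.2 without, at 0.044 ± 0.06. The other 2-cysteine forms were at -0.036 ± 0.07 for PRDX2, -0.066 ± 0.06 for PRDX3, the mitochondrial form, and 0.058 ± 0.07 for PRDX4, the secretory pathway form. Their 95% intervals with that of PRDX1 spanned -0.21 to 0.22, and in each the groups overlapped. PRDX6, a 1-cysteine peroxiredoxin, was at -0.027 ± 0.07, while its dimmer probe set was called lower at -0.21 ± 0.06.

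Thioredoxin itself, TXN, gave 6352.3, 6118.1 and 6019.9 with calactin and 5777.8, 6158.9 and 6633.3 without. The calactin arrays lay inside the untreated range, and the difference was -0.004 ± 0.07 (95% interval -0.15 to 0.15), although a dim second probe set was called lower at -0.46 ± 0.13. With probe sets that mark no shared sequence preferred, that second probe set stood for TXN, which was then called lower (adjusted p = 0.0364). TXNRD1, the cytosolic thioredoxin reductase and a NRF2 target, was at -0.12 ± 0.11, and TXNRD2, its mitochondrial counterpart, at 0.026 ± 0.17. TXN2, mitochondrial thioredoxin, gave 699.9, 697.8 and 663.0 with calactin and 845.9, 801.0 and 738.2 without, apart but not called at -0.20 ± 0.09 (adjusted p = 0.159).

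None of the 3 enzymes that remove superoxide and hydrogen peroxide directly was called by limma, with 1 of the 3 at an unadjusted p under 0.05, as were 6102 of all 19775 genes. CAT, catalase, gave 3489.9, 4204.2 and 3308.2 with calactin and 4190.2, 5410.3 and 4637.7 without. Calactin array 2 just overlapped untreated array 1, and the difference was -0.37 ± 0.12 (adjusted p = 0.0530). With the replicate number as a block CAT was called lower (adjusted p = 0.0034), as it was without calactin array 2 (adjusted p = 0.0303) or untreated array 1 (adjusted p = 0.0419). SOD1, the copper and zinc enzyme, gave 8837.6, 9043.0 and 9165.8 with calactin and 9266.3, 9487.7 and 10447.5 without, at -0.11 ± 0.06 (adjusted p = 0.279), with groups apart.

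SOD2, the manganese enzyme of mitochondria, was at -0.16 ± 0.19 at the only probe set with its symbol alone. The brightest SOD2 probe set also carries the symbol of the transcript SOD2-OT1 and so names no single gene. It gave 1113.9, 1138.6 and 1161.9 with calactin and 1068.7, 962.0 and 1017.4 without, at 0.16 ± 0.08 (adjusted p = 0.245 over all probe sets).

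Of the 5 metallothioneins and the zinc exporter, 1 was called higher and 0 lower, with a median of 0.18. MT1G gave 896.8, 1178.0 and 1150.3 with calactin and 760.1, 815.3 and 830.7 without. The groups were apart, and MT1G was called at 0.41 ± 0.12, 1.32-fold (adjusted p = 0.0366). That probe set's identifier marks probes that can match other transcripts, as do the brightest ones of the other 4 metallothioneins, whose coding sequences are alike. The MT1G probe set without that mark gave 40.2, 13.6 and 39.4 with calactin and 43.8, 36.6 and 58.6 without, at -0.45 ± 0.28. The call was lost without calactin array 2 or 3 or any 1 untreated array (adjusted p = 0.0692 to 0.139).

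MT1X gave 927.1, 1145.8 and 1238.0 with calactin and 872.7, 876.0 and 891.6 without. Those groups were apart too, at 0.31 ± 0.11 (adjusted p = 0.0881), and MT1X was called with the replicate number as a block (adjusted p = 0.0347) or without calactin array 1 (0.43, adjusted p = 0.0186). MT2A, usually the most expressed metallothionein of human cells, gave 1152.4, 1620.7 and 1528.7 with calactin and 1497.7, 1825.4 and 1638.6 without, at -0.21 ± 0.14 with overlapping groups. MT1E was at -0.23 ± 0.20 and MT1F at 0.11 ± 0.18. A second MT1E probe set, nearly as bright, was at 0.20 ± 0.13 and not called, so the sign of MT1E depended on the probe set. As deposited, at the brightest probe sets, 3 of the 5 metallothioneins were above 0 and 2 below. Under poly-A spike scaling with the replicate block MT1E stood at 0.31 and MT2A at 0.32, neither of them called.

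SLC30A1 encodes the plasma membrane zinc exporter, a target of MTF1. It gave 1032.2, 1064.2 and 1021.2 with calactin and 482.6, 2439.3 and 558.5 without. The calactin arrays agreed closely, whereas untreated array 2 was far above the other untreated arrays, and a second probe set had the same array highest, at 410.6, 443.3 and 507.2 with calactin and 379.9, 1474.4 and 448.1 without. The difference of 0.25 ± 0.51 was not called. Without untreated array 2 it was 0.98 (adjusted p = 0.00078), but leaving out the highest untreated array could only raise it. SLC30A1 was called in 2 of 19 alternatives, the other being poly-A spike scaling with the replicate block.

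The direction of the glutathione falls depended on how arrays were put on 1 scale. Poly-A spikes are bacterial RNAs added during labelling. Their mean log2 signal was 9.79, 10.15 and 6.38 with calactin and 10.34, 10.89 and 6.81 without. Both replicate 3 arrays thus lay far below the rest, for reasons not tested, and this scaling was set within each replicate number. With arrays scaled to these spikes and the replicate number as a block, the median of all genes stood at 0.475 in place of -0.059. Of the 39 genes, 25 were called higher and 2, SRXN1 and MAFF, lower. GSR was then at 0.11, GSS at 0.26, GLRX at 0.10 and GLRX2 at 0.077, above 0 yet below that median, and none of the 4 was called. Hybridisation spike scaling kept the 4 below 0 with none called (adjusted p = 0.406 to 0.821), and quantile normalization and median centring ended the calls of GSS (adjusted p = 0.299 and 0.132) and GLRX. Hybridisation spike scaling also ended the calls of NQO1 (adjusted p = 0.189) and MT1G (adjusted p = 0.136). Their values did not shrink, at 0.46 for NQO1 and 0.50 for MT1G. The mean log2 signal of the hybridisation spikes was 10.04, 10.23 and 10.63 with calactin and 10.47, 10.36 and 10.37 without. BACH1, under poly-A scaling with the block, remained below 0, at -0.21 (adjusted p = 0.208). Under quantile normalization 6 genes were called higher and 5 lower, and the share of lower among all called genes was 59.1%, against 77% as deposited and 9.78% under poly-A scaling with the block.

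**Figure D3:**
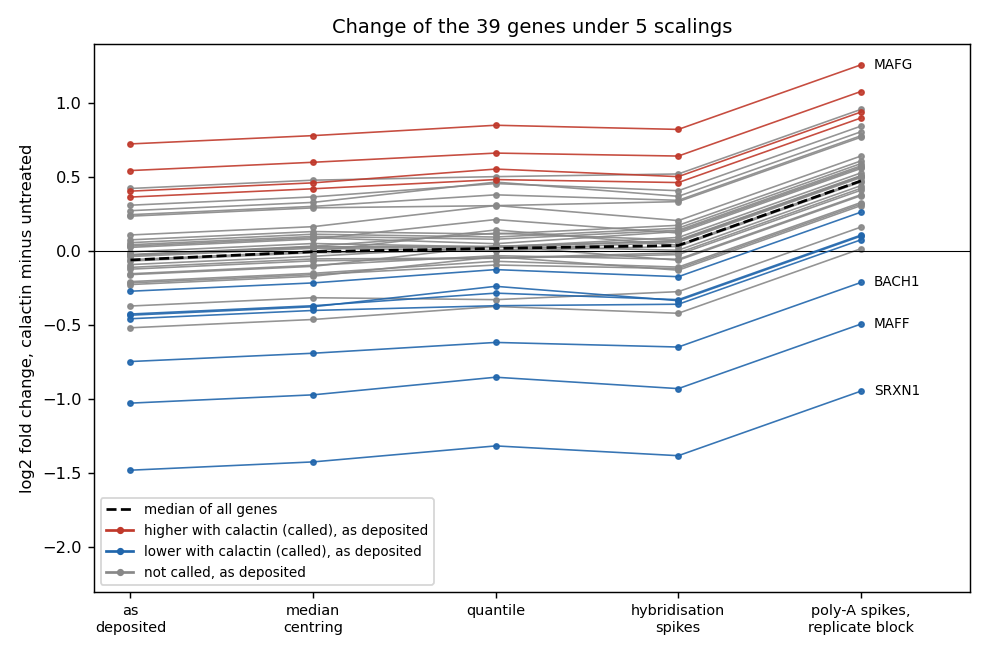
Log2 fold change (calactin minus untreated) of the 39 genes, 1 line per gene, as deposited and under 4 other scalings, with the median of all genes as a dashed line. SRXN1 and MAFF stay below 0 in all 5, and the median of all genes moves to 0.475 with poly-A spikes and the replicate block.

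Among 37 other NRF2 partners and targets, 4 were called higher and 10 lower (37.8%), with a median of -0.046. Of all 19775 genes 21.4% were called, the share to set beside this list and those that follow. With genes above the median signal fitted alone, 1136 of 9887 were called higher and 3365 lower. CBR1, a carbonyl reductase, gave 34.6, 45.7 and 26.5 with calactin and 184.1, 152.4 and 206.9 without, and fell by 1.94 ± 0.19 on the log2 scale, 3.84-fold (adjusted p = 0.00023). SQSTM1, the autophagy receptor p62 that binds KEAP1, went the other way. It gave 5116.3, 5384.0 and 4719.6 with calactin and 2211.3, 3389.4 and 2087.8 without, at 1.01 ± 0.16, 2.02-fold (adjusted p = 0.0024). With probe sets that mark no shared sequence preferred, SQSTM1 was at -0.024 (adjusted p = 0.955), and with its probe sets averaged at 0.32 (adjusted p = 0.0686). NFE2L3, another CNC factor related to NRF2, fell by 1.42 ± 0.16, but with that preference it was at -0.63 and not called (adjusted p = 0.106). ABCC1, which exports glutathione conjugates, fell by 0.51 ± 0.09, though it was not called under hybridisation spike scaling (adjusted p = 0.290) and stood at 0.021 under poly-A scaling with the block.

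Of 36 other glutathione genes, 0 were called higher and 5 lower (13.9%) as deposited, with a median of -0.14, while poly-A spike scaling together with the replicate block called 20 higher and 0 lower. Of the 36, as deposited, 14 had an unadjusted p under 0.05, as had 6102 of all 19775 genes. LAP3, an aminopeptidase that can split the cysteinylglycine left from glutathione, gave 1583.7, 1384.3 and 1661.7 with calactin and 2625.6, 2688.6 and 2749.2 without, at -0.80 ± 0.08 (adjusted p = 0.0003). OPLAH and GGCT, which act on 5-oxoproline and on gamma-glutamyl peptides in glutathione breakdown, fell by 0.58 ± 0.13 and 0.34 ± 0.07. GLRX3, a glutaredoxin of iron-sulfur protein assembly, fell by 0.33 ± 0.07. OPLAH lost its call without calactin array 3 (adjusted p = 0.0564). GLRX3 was at -0.15 with unshared probe sets preferred (adjusted p = 0.672) and at -0.17 with probe sets averaged (adjusted p = 0.222). Hybridisation spike scaling ended the calls of OPLAH, GGCT and GLRX3 (adjusted p = 0.211, 0.684 and 0.721). Under poly-A scaling with the block none of the 4 was called, with LAP3 at -0.27, OPLAH at -0.047, GGCT at 0.19 and GLRX3 at 0.21.

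Other thioredoxin family and methionine sulfoxide genes had 3 called higher and 3 lower of 27 (22.2%), with a median of 0.006, and 6 were lower with the replicate block. TXNIP, which binds thioredoxin and blocks its active site, gave 8362.5, 8167.1 and 7964.0 with calactin and 4862.6, 5101.7 and 5303.3 without. Its groups were far apart, and it rose by 0.68 ± 0.06, 1.60-fold (adjusted p = 0.00013), while TXN itself was at -0.004 at its brightest probe set. TXNL4B, a splicing-related protein with a thioredoxin fold, rose by 0.84 ± 0.15. TXNDC9, a thioredoxin-domain partner of the chaperonin that folds actin and tubulin, fell by 1.11 ± 0.10, but with unshared probe sets preferred it was at -0.50 and not called (adjusted p = 0.169). PDIA4, a disulfide isomerase of the endoplasmic reticulum, fell by 0.46 ± 0.08. PDIA4 was not called with unshared probe sets preferred (adjusted p = 0.155) or under hybridisation spike scaling (adjusted p = 0.408), and was at 0.076 under poly-A scaling with the block.

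Selenium enters this system because thioredoxin reductases and GPX4 are selenoproteins. Of 22 measured genes of selenoprotein synthesis and other selenoproteins, 1 was called higher and 4 lower (22.7%), with a median of -0.15, and 8 were lower with the replicate block. SEPHS2, which makes the selenium donor for selenocysteine, gave 1405.0, 1304.5 and 1540.4 with calactin and 3279.2, 3018.5 and 3709.9 without, and fell by 1.22 ± 0.10, 2.34-fold (adjusted p = 0.00011). SCLY, which frees selenium from selenocysteine, fell by 0.84 ± 0.13, but was not called with probe sets averaged (-0.39, adjusted p = 0.0825) or under poly-A scaling with the block (-0.31, adjusted p = 0.111). SELENOP, the selenium carrier of plasma, fell by 1.18 ± 0.17 at its brightest probe set, but was at -0.12 (adjusted p = 0.817) where probe sets that mark no shared sequence were preferred. SELENOT, a selenoprotein of the endoplasmic reticulum, rose by 0.66 ± 0.07, with 3375.7, 3297.2 and 3485.2 with calactin and 2123.8, 2023.4 and 2266.2 without.

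Of 31 other metallothionein and zinc or copper transport genes, 3 were called higher and 6 lower (29%), with a median of 0.034. SLC39A14, an importer of zinc and iron, gave 562.6, 626.0 and 614.3 with calactin and 1033.6, 1077.2 and 1205.4 without, at -0.86 ± 0.10 (adjusted p = 0.00037). SLC30A6, a zinc transporter of the Golgi, fell by 0.69 ± 0.09, and ATP7B, a copper pump, by 0.77 ± 0.13. SLC39A9, another zinc transporter of the importer family, rose by 0.49 ± 0.08. With probe sets averaged, SLC39A9 was at 0.19 (adjusted p = 0.297) and SLC39A14 at -0.28 (adjusted p = 0.139), neither called. Poly-A scaling with the block ended the calls of SLC39A14 (adjusted p = 0.0505), SLC30A6 (0.363) and ATP7B (0.182), and hybridisation spike scaling those of SLC39A9 (adjusted p = 0.0565) and SLC30A6 (0.0681).

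**Figure D4:**
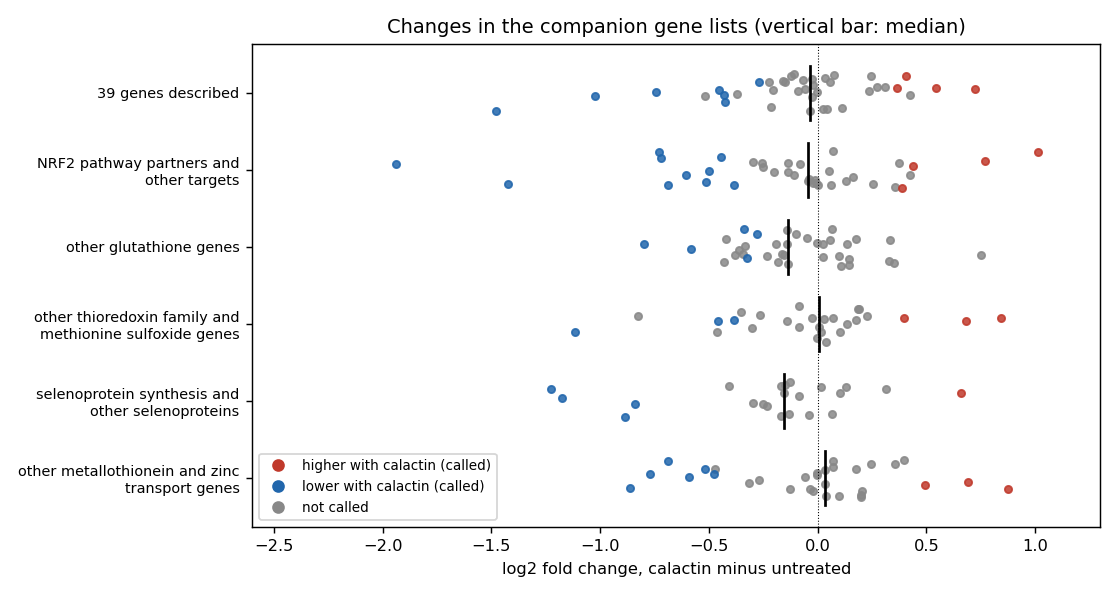
Log2 fold change (calactin minus untreated) of the 39 genes and of the 5 companion lists, 1 point per measured gene, coloured by call, with a bar at each list's median. Medians lie between -0.15 for selenoprotein genes and 0.034 for other metallothionein and zinc transport genes, and each list but the other glutathione genes holds calls in both directions.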

How the data were processed

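The deposited table gives, for each probe set on each array, the authors' linear intensity. Per the labels' protocols, biotinylated cRNA was made from 8 ug of total RNA. How it was summarised, background corrected and scaled is not given in the sources used here. Of 54675 probe sets, 62 were controls, 41091 carried 1 symbol in the platform annotation, 1801 several and 11721 none. Checking the members' symbols by gene ID against RefSeq changed 0 of them. No further normalization was applied before log2(intensity + 16). The brightest single-symbol probe set by mean log2 stood for a gene. The 3 calactin arrays were set against the 3 untreated ones with limma 3.58.1 (lmFit, eBayes with trend; R 4.3.3). Each gene had 4 residual degrees of freedom, and the median standard error was 0.16. The number of arrays limits the precision. A second fit took all 54613 probe sets that are not controls, of which 13.9% were called. Figures were drawn with matplotlib 3.10.9 in python 3.11.15.

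The members and the 5 companion lists were chosen with earlier results of these data known. Every member was named or counted, and from each list the 4 called genes with the smallest p were named. Companion lists include some older symbols beside current ones, so listed entries exceed genes. Replicate numbers come from the sample titles. Over 9887 genes above the median signal, deviations from the group means correlated at 0.544, 0.409 and 0.345 between same-numbered arrays of the groups, and at most at -0.008 between others, so the numbers were taken to pair the arrays. The negative values are partly forced, as each gene's deviations within a group cancel out. The fit without the block is given unless stated, and it leaves this pairing out. With the block 1402 of all genes were called higher and 3992 lower, in place of 975 and 3264. Among the members GCLM and MT1X were then also called higher and CAT lower. Alternatives covered scaling, pseudocount, filter, probe set choice, variance model, block and each array left out.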

Additional observations from a re-analysis of the deposited data

Results flagged for a closer look

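A control probe set for the middle of 28S ribosomal RNA, outside the gene comparison, stood out because its level with calactin exceeded that in the untreated arrays in all 3 pairs. It gave 10036.4, 13171.9 and 7118.9 with calactin and 616, 1051 and 529.4 without, a ratio of group means of 13.8. The probe set for the 5′ end of the same RNA gave 980.4, 1489.7 and 589 with calactin and 419.6, 468 and 354.8 without. The ratios of 3′ to 5′ control signal were 0.94 to 1 with calactin and 0.94 to 0.98 without for GAPDH, and 1.17 to 1.41 with calactin and 1.23 to 1.49 without for ACTB. The part of this difference in the members' values was not tested.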

How the results depend on the processing

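With 3 arrays a group, changes near the median standard error could not be resolved, and the lists chosen with results known give no independent count. Of 19 alternatives, SRXN1 and MAFF were called lower in all 19, NFE2L1 higher in 18, BACH1 and GSR lower in 16, GLRX2 in 15, MAFG higher in 13, NQO1 in 12, MT1G in 9, GLRX lower in 9 and GSS in 6. SRXN1 had only 1 probe set, so alternatives on probe set choice could not change its value. The causes of the shifts below were not tested.

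The replicate block left the log2 fold changes as they were, called 6 members higher and 8 lower (GCLM and MT1X higher and CAT lower were added), 1402 genes higher and 3992 lower in all, 1 other glutathione gene higher, 6 other thioredoxin genes lower and 8 selenoprotein genes lower, and changed no other member's call.

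Hybridisation spike scaling called 2 members higher and 3 lower, 603 and 1463 of all genes (median 0.039), 1300 and 2412 probe sets, 2 and 2 other NRF2 genes (median 0.052), 1 and 1 other glutathione genes (median -0.041), 1 other thioredoxin gene lower (median 0.103) and 2 zinc transport genes lower (median 0.132), with a selenoprotein median of -0.056. Poly-A spike scaling with the block called 25 members higher and 2 lower (median 0.498), 9390 and 1018 of all genes (median 0.475), 24670 and 1747 probe sets, 19 and 2 other NRF2 genes (median 0.487), 20 and 0 other glutathione genes (median 0.395), 18 and 1 other thioredoxin genes (median 0.539), 10 and 2 selenoprotein genes (median 0.38) and 20 and 0 zinc transport genes (median 0.568). Among members and named genes called in the main fit or under this scaling, it turned these from below 0 to above: KEAP1 0.511, MTF1 0.477, GSR 0.109, GSS 0.264, GSTP1 0.507, MGST1 0.382, GLRX 0.102, GLRX2 0.077, TXN 0.529, TXN2 0.329, TXNRD1 0.412, PRDX2 0.498, PRDX3 0.468, PRDX6 0.506, ABCC1 0.021, GLRX3 0.209, GGCT 0.193 and PDIA4 0.076. Members called in neither fit could turn too, as MT1E and MT2A did. CAT, also called in neither, was at most at 0.163 over the 19 alternatives.

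Quantile normalization called 1659 genes higher (median 0.019), 3382 probe sets higher, 1 other glutathione gene higher and 3 lower (median -0.034) and 6 zinc transport genes higher (median 0.145), with medians of 0.108 for other thioredoxin and 0.013 for selenoprotein genes. Median centring gave a median of -0.003 over all genes, -0.082 with 1 call higher for other glutathione genes, 0.062 for other thioredoxin and -0.098 for selenoprotein genes. A pseudocount of 1 gave a median of -0.089 over all genes and 64 gave -0.03. Genes above the median signal alone had a median of -0.133, with 1 other glutathione gene higher and 8 lower and 5 other thioredoxin genes lower.

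Averaging a gene's probe sets turned BACH1 to 0.125 and MT1G to -0.022 and left 2 other NRF2 genes higher, 5 other thioredoxin genes lower and 1 zinc transport gene higher. Preferring probe sets without shared sequence turned MT1G to -0.45 and SQSTM1 to -0.024 and left 1 other thioredoxin gene lower (median 0.029). It also called TXN lower, at -0.462 (adjusted p = 0.0364). eBayes without a trend called 1 member higher, 2 other NRF2 genes higher and 2 other glutathione genes lower, and robust eBayes called 5 other thioredoxin genes lower. Replicates 1 and 2 alone called 0 members higher and 3 lower, 332 and 1403 of all genes, 340 and 1279 probe sets, 0 and 3 other NRF2 genes, 1 other glutathione gene lower, 1 and 1 other thioredoxin genes (median -0.023), 1 selenoprotein gene lower and 0 and 2 zinc transport genes.

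Leaving out 1 array at a time called 1 to 5 members higher and 4 to 6 lower, with medians of -0.099 to -0.004. The fewest higher were 1 without calactin array 2 and 1 without untreated array 3, and 2 without untreated array 1, and the fewest lower were 4 without untreated array 3. Over all genes it gave 644 to 1015 higher and 2390 to 3030 lower (medians -0.075 to -0.045), with 648 higher without calactin array 2 and 644 without calactin array 3, and 1222 to 1949 and 3640 to 4832 probe sets. Other NRF2 genes had 1 to 4 higher and 7 to 11 lower, with 2 higher without calactin array 2 or untreated array 1 and 1 without calactin array 3 or untreated array 3. Medians were -0.031 to 0.021 for other thioredoxin genes, -0.173 to -0.093 for selenoprotein genes and -0.075 to 0.084 for zinc transport genes, and the last had 1 to 3 higher, with 1 without untreated array 3.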
